A study of Homo sapiens with 6 samples.

Results

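Expression of 34 genes that carry carbon into, around and out of the tricarboxylic acid (TCA) cycle was followed in 786-O cells, an established line of human clear cell renal carcinoma, after knockdown of the long non-coding RNA LINC02068. The genes were taken from the count table by symbol. They are 34 of its 60649 genes, and all 34 were among the 16039 genes expressed enough to test. RNA sequencing libraries came from 3 groups of untreated cells in culture, with 2 libraries in each: cells with a first hairpin against LINC02068 (shRNA1), cells with a second hairpin (shRNA2), and cells with a control hairpin (shControl), which the labels call WT. All groups therefore carry a hairpin. The labels give neither the vector nor whether a line is 1 clone or a pool, and nothing in them says whether the 2 libraries of a group came from separate cultures. The p-values then measure only the spread between libraries, which may be technical. The comparison asks which steps of the cycle change in transcript level when LINC02068 is lowered, in a study about oxidative phosphorylation.

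The TCA cycle runs in the mitochondrial matrix. Pyruvate enters through a carrier in the inner membrane and is either oxidised to acetyl-CoA by the pyruvate dehydrogenase complex or carboxylated to oxaloacetate. Glutamine carbon enters at 2-oxoglutarate, made from glutamate by a dehydrogenase or by transaminases, and several steps have a second isozyme in the cytosol, so that citrate, malate and aspartate can be used there. In clear cell renal carcinoma, cells without working VHL are known for strong glycolysis and for drawing on glutamine to feed the cycle.

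Libraries held 15376448 to 37311846 counts, and levels are given as CPM, a gene's counts scaled to the size of its library with TMM factors, where 1 CPM stood for 14.9 to 36.0 counts. On the second principal component of all tested genes (15.1% of the variance) the library shRNA1 replicate 1 lay at 50.4 and the other 5 between −23.0 and 4.99. The counts of called members in the mean of both hairpins are given with and without that library. Renal markers were present in every library (PAX8 at 306 to 335 CPM). The 7 on the list summed to 6676 to 6684 CPM in the control libraries and 8186 to 8336 in the knockdown libraries. VIM held most of that sum, with means of 5147 CPM in shControl, 5938 in shRNA1 and 5935 in shRNA2. KRT8 had 832, 1524 and 1577 CPM in the same order. PAX8 (log2 0.10), PAX2, KRT8, KRT18 and VIM were called higher in the mean of both hairpins. CA12 was lower (−0.26 ± 0.04, edgeR adjusted p = 8.74e-05) and CDH16 was not called (−0.09 ± 0.08, adjusted p = 0.372). TMM factors (1.07 to 1.08 in the controls, 0.960 to 0.969 in the knockdown libraries) and the share of counts from the mitochondrial genome (2.30% and 2.43%, against 2.57% to 2.71%) differed between the conditions as well. The part of these differences in the results was not tested. In every library PTPRC and CD3E of leukocytes, CDH5 of endothelium and DCN of fibroblasts had no counts. Of the 4 leukocyte markers CD68 was present at 35.8 to 44.0 CPM and CD14 stayed under 1 CPM. All 3 endothelial markers were under 1 CPM. Of the 4 fibroblast and pericyte markers COL1A1 had 3.54 to 5.91 CPM, COL3A1 0.535 to 1.82 CPM, and PDGFRB was lower in the knockdown libraries than in the controls, where it had 4.51 and 3.10 CPM (log2 −1.06 ± 0.28, edgeR adjusted p = 0.00418). LINC02068 itself had 20 and 32 counts in the controls, 9 and 2 under shRNA1, and 17 and 10 under shRNA2. The log2 change in the mean of both hairpins was −1.46 ± 0.59 (SE; edgeR adjusted p = 0.0447). LINC02068 was not called with either hairpin by itself (adjusted p = 0.0690 for shRNA1 and 0.148 for shRNA2), and the call for the mean was lost in 5 of 6 fits that left out 1 library (log2 −2.26 to −1.02, adjusted p = 0.00914 to 0.219) and in DESeq2 (adjusted p = 0.0846). The 5 were those without shRNA1 replicate 2 (log2 −1.02), either shRNA2 library or either shControl library.

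More of the 34 genes rose than fell. In the mean of both hairpins against shControl, 19 were higher, 4 were lower and 11 were not called (edgeR quasi-likelihood test, Benjamini-Hochberg adjusted p under 0.05 over all tested genes). Over all tested genes 57.5% were called, 28.6% higher and 28.9% lower, so the share of higher members stood above the background and the share of lower members below it. The median log2 change was 0.29 for the members and −0.03 for all tested genes. In bulk RNA of this kind, fewer cells that express a gene and less RNA per cell cannot be told apart. Without shRNA1 replicate 1 the counts were 21 higher and 4 lower (27.0% and 25.9% of all genes then tested), and the genes added were SDHA and SUCLA2. Each hairpin alone gave the same counts, 19 higher and 4 lower, against a background of 52.4% called with shRNA1 (26.8% higher, 25.6% lower) and 52.8% with shRNA2 (26.7% higher, 26.1% lower). Without shRNA1 replicate 1 the median log2 change in the mean of both hairpins was 0.28 for the members and −0.03 for all tested genes. The same 19 and the same 4 genes were called with each hairpin (background 24.4% higher and 22.4% lower with each), and both comparisons share the control libraries. Between the hairpins no member differed by the edgeR test (background 0.0312%, with 0.00623% higher and 0.0249% lower in shRNA1), with 2 members at an unadjusted p under 0.05 and none called by DESeq2.

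**Figure D1:**
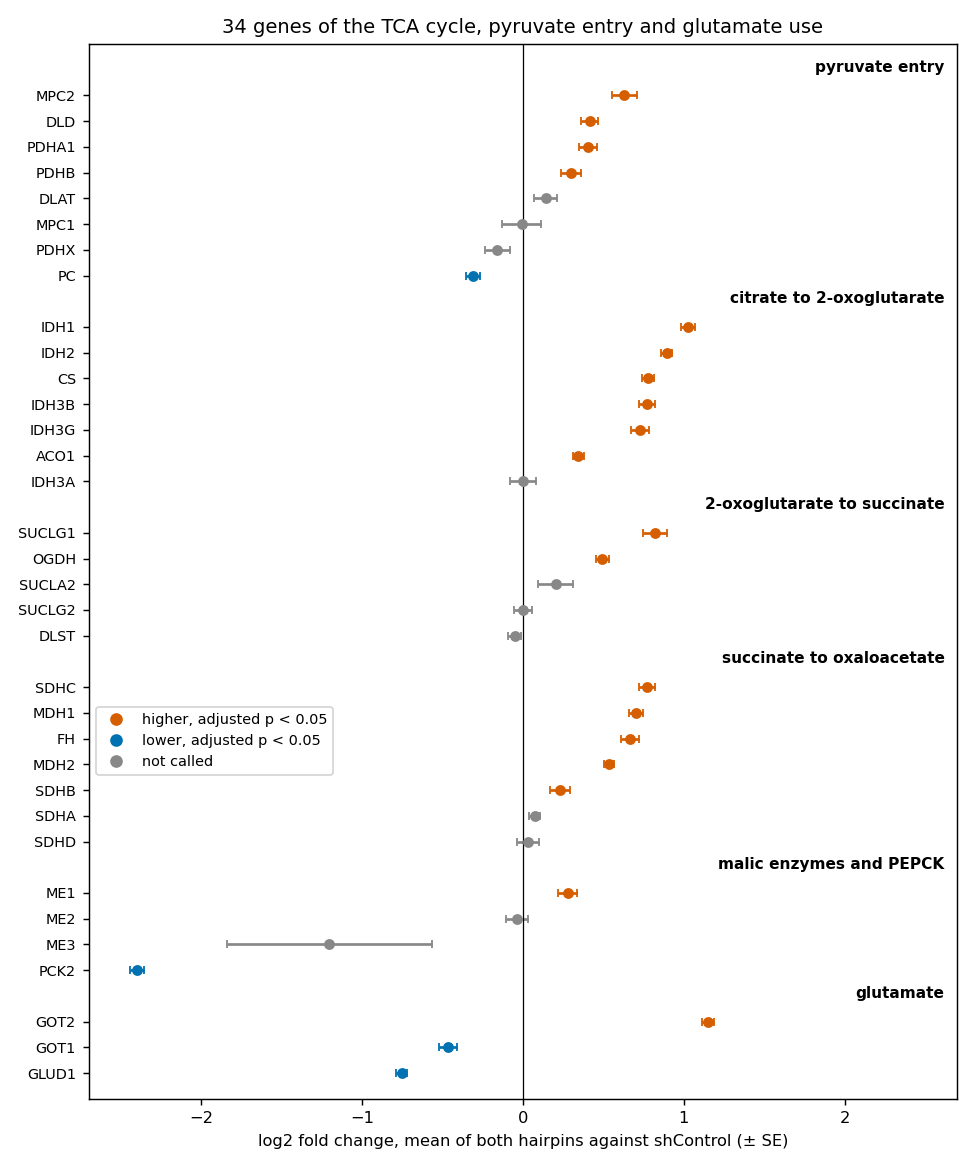
Log2 fold change of each of the 34 genes in the mean of both hairpins against shControl, with SE bars, grouped by step. Orange points passed the test as higher (19 genes), blue as lower (4 genes) and grey did not pass (11 genes); PCK2 lies farthest to the left, at −2.40, and GOT2 farthest to the right, at 1.15.

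Small changes depend on how libraries are scaled. When libraries were scaled by total counts alone, the median change of all tested genes moved from −0.03 to −0.18, and that of the members from 0.29 to 0.13. Of the members, 16 were then higher and 9 lower, so that 64.0% of called members were higher rather than 82.6%. Over all tested genes 21.2% were then higher and 37.6% lower, so that 36.0% of called genes were higher rather than 49.7%. The added lower genes were DLST, SUCLG2, SDHA, PDHX and ME2, none of which passed the main test. Calls of PDHB, SDHB and ME1 were lost. The other 16 higher genes and all 4 lower genes kept their direction and call in each of the 13 alternative settings run for this comparison. Of the members, 3 were called and moved by more than 1 log2 unit, against 12.7% of all tested genes. These were PCK2, which fell, and GOT2 and IDH1, which rose.

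Pyruvate entry split within its own complexes. Of 8 genes 4 were higher, 1 lower and 3 not called, against 28.6% higher and 28.9% lower over all tested genes. MPC2 and MPC1 encode the paired subunits of the mitochondrial pyruvate carrier. MPC2 had 51.6 and 53.1 CPM in the controls, 90.6 and 79.2 under shRNA1, and 84.2 and 70.5 under shRNA2 (0.63 ± 0.08, adjusted p = 1.96e-05). All 4 knockdown libraries lay above both controls. MPC1, at 11.3 and 14.2 CPM in the controls, had 12.3 to 13.1 CPM in the knockdown libraries, inside the control range (−0.01 ± 0.12, adjusted p = 0.969).

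The pyruvate dehydrogenase complex joins decarboxylation of pyruvate to the making of acetyl-CoA. PDHA1, its E1 alpha subunit, had 77.5 and 76.8 CPM in the controls, 110.3 and 95.0 with shRNA1, and 101 and 102 with shRNA2 (0.40 ± 0.06, adjusted p = 1.94e-05). PDHB, the E1 beta subunit, rose by less, from 45.7 and 47.7 CPM to between 55.1 and 61.4 (0.30 ± 0.06, adjusted p = 0.000877). DLD, the E3 dehydrogenase that this complex shares with the 2-oxoglutarate complex, went from 70.7 and 68.6 CPM to 101 and 94.8 with shRNA1 and 89.9 and 85.4 with shRNA2 (0.41 ± 0.05, adjusted p = 5.90e-06). The core and its tether did not pass the test, and their difference from the other subunits was not tested. DLAT, the E2 core, had 38.6 and 41.7 CPM in the controls and 41.7 to 46.8 in the knockdown libraries (0.14 ± 0.07, adjusted p = 0.107). It was called higher without shRNA1 replicate 2 (0.20, adjusted p = 0.0320) and after removal of a length and GC trend (0.26, adjusted p = 0.00551). PDHX, which binds E3 to the core, had 40.0 and 39.8 CPM in the controls and 32.4 to 38.8 in the knockdown libraries, all below both controls (−0.16 ± 0.08, adjusted p = 0.0949). It was called lower without shRNA1 replicate 2 (−0.21, adjusted p = 0.0226) and with the stricter filter on low counts (−0.18, adjusted p = 0.0483).

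PC, pyruvate carboxylase, which makes oxaloacetate from pyruvate, fell. It had 144 CPM in each control library, 117 and 112 with shRNA1, and 114 and 121 with shRNA2 (−0.31 ± 0.04, adjusted p = 1.13e-05). The knockdown libraries all lay below both controls.

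The steps from oxaloacetate to 2-oxoglutarate had the highest median of the 6 groups, 0.77, with 6 of 7 genes higher and 1 not called. Over all tested genes 28.6% were higher. CS, citrate synthase, which opens the cycle, had 115 and 113 CPM in the controls, 197 and 190.4 with shRNA1, and 193 and 199 with shRNA2 (0.78 ± 0.04, adjusted p = 1.14e-10). ACO1, the cytosolic aconitase that also serves as an iron-responsive RNA-binding protein, went from 163 and 159 CPM to between 199.7 and 212 (0.34 ± 0.04, adjusted p = 5.23e-07). The control and knockdown libraries did not overlap for either gene.

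Both NADP-dependent isocitrate dehydrogenases rose. IDH1, the form in the cytosol and peroxisomes, had 75.9 and 73.6 CPM in the controls, 155 in each shRNA1 library, and 147 and 151 with shRNA2, a 2.04-fold difference (1.03 ± 0.04, adjusted p = 1.64e-11). IDH2, the mitochondrial form, had 154 and 151 CPM in the controls, 274 and 281 with shRNA1, and 288 and 292 with shRNA2, a 1.86-fold difference (0.89 ± 0.03, adjusted p = 5.14e-12). In both genes the 2 libraries of each group lay far closer to each other than to the other condition.

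The NAD-dependent isocitrate dehydrogenase of the cycle is built from a catalytic alpha subunit and regulatory beta and gamma subunits. IDH3B (beta) went from 65.4 and 65.0 CPM to between 108 and 115 (0.77 ± 0.05, adjusted p = 2.51e-09). IDH3G (gamma) went from 42.8 and 42.7 CPM to 67.1 and 65.3 with shRNA1 and 76.6 and 75.3 with shRNA2 (0.73 ± 0.06, adjusted p = 2.17e-08). IDH3A (alpha) had 33.8 and 29.7 CPM in the controls and 30.5 to 33.1 in the knockdown libraries, inside the control range (0.00 ± 0.08, adjusted p = 0.988).

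**Figure D2:**
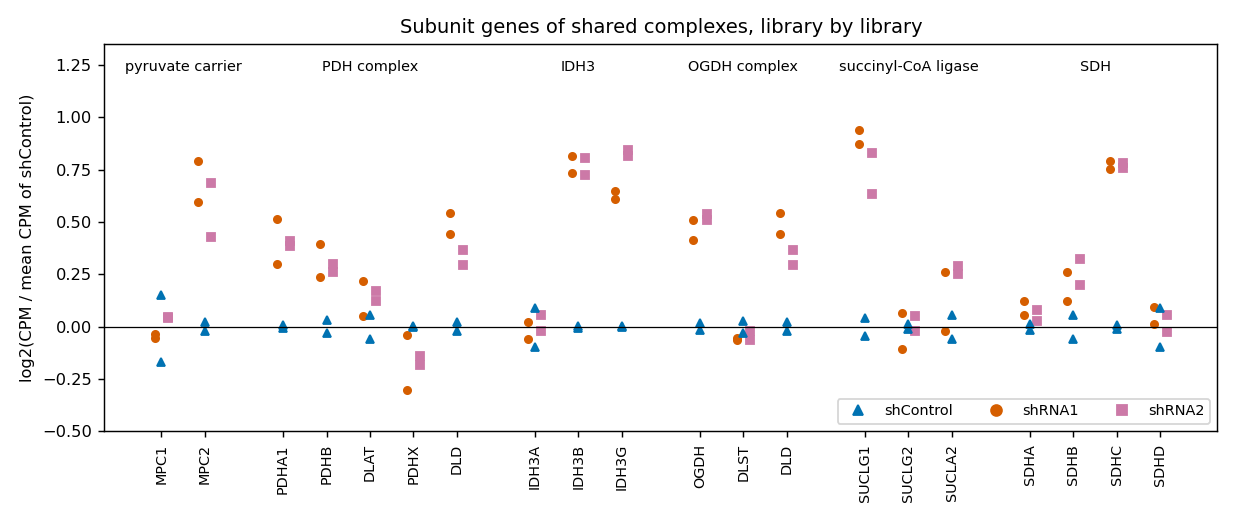
Level of each subunit gene in each of the 6 libraries, as log2 of its CPM over the mean CPM of the 2 shControl libraries, for 6 complexes (DLD belongs to both 2-oxoacid dehydrogenase complexes). IDH3B and IDH3G lie above 0.5 in the knockdown libraries while IDH3A stays near 0. MPC2, SUCLG1 and SDHC also lie above their partners in every knockdown library, and SDHB, a partner of SDHC, was itself called higher.

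Between 2-oxoglutarate and succinate 2 of 5 genes were higher (28.6% over all tested genes) and 3 were not called. OGDH, the E1 subunit of the 2-oxoglutarate dehydrogenase complex, had 115 and 118 CPM in the controls, 165 and 155 with shRNA1, and 166 and 169 with shRNA2 (0.49 ± 0.04, adjusted p = 5.49e-08). DLST, the E2 core of the same complex, had 114 and 119 CPM in the controls and 111 to 115 in the knockdown libraries (−0.05 ± 0.04, adjusted p = 0.310). Succinyl-CoA ligase pairs 1 alpha subunit, SUCLG1, with either a GTP-forming beta subunit, SUCLG2, or an ATP-forming one, SUCLA2. SUCLG1 rose from 26.4 and 28.0 CPM to 52.3 and 49.9 with shRNA1 and 48.3 and 42.3 with shRNA2 (0.82 ± 0.08, adjusted p = 1.97e-07). SUCLG2 had 79.7 and 78.5 CPM in the controls and 73.6 to 82.7 in the knockdown libraries, on both sides of the controls (−0.00082 ± 0.06, adjusted p = 0.992). SUCLA2 was the least certain of these, at 17.3 and 15.9 CPM in the controls and 16.4 to 20.3 in the knockdown libraries (0.20 ± 0.11, adjusted p = 0.119). It was called higher without shRNA1 replicate 1 (0.29, adjusted p = 0.0287) and after removal of the length and GC trend (0.35, adjusted p = 0.0107).

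From succinate to oxaloacetate 5 of 7 genes were higher (28.6% over all tested genes) and 2 were not called. Succinate dehydrogenase is also complex II of the respiratory chain. SDHC, a membrane anchor, went from 57.6 and 58.4 CPM to between 97.8 and 100.3 (0.77 ± 0.05, adjusted p = 2.47e-09), whereas SDHD, the other anchor, had 46.0 and 52.3 CPM in the controls and 48.3 to 52.4 in the knockdown libraries (0.03 ± 0.07, adjusted p = 0.708). SDHB, the iron-sulfur subunit, had 68.2 and 63.2 CPM in the controls and 71.5 to 82.2 in the knockdown libraries (0.23 ± 0.06, adjusted p = 0.00519), a call lost without shControl replicate 2 (0.17, adjusted p = 0.114). SDHA, the flavoprotein subunit, had 214 and 218 CPM in the controls and 220.0 to 235 in the knockdown libraries (0.07 ± 0.03, adjusted p = 0.0877). It was called higher without shRNA1 replicate 1 (0.11, adjusted p = 0.0316) and after removal of the length and GC trend (0.14, adjusted p = 0.00188), and lower under total counts (−0.08, adjusted p = 0.0458).

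The last steps moved together. FH, fumarase, whose single gene serves both compartments, had 62.6 and 67.8 CPM in the controls and 97.9 to 109 in the knockdown libraries (0.66 ± 0.06, adjusted p = 7.06e-08). MDH2, the mitochondrial malate dehydrogenase that closes the cycle, had 232 and 237 CPM in the controls, 333 and 343 with shRNA1, and 339.7 and 342 with shRNA2 (0.53 ± 0.03, adjusted p = 9.47e-10). MDH1, its cytosolic counterpart, went from 78.3 and 81.0 CPM to between 126 and 134 (0.70 ± 0.04, adjusted p = 1.81e-09). For all 3 genes every knockdown library lay above both controls.

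The genes that draw carbon out of the cycle or exchange it with glutamate held 3 of the 4 that fell. The sequences before the starts of 4 of them are shown because these genes had the 3 lowest fold changes and the highest one among called members. They are the 250 bases before the RefSeq gene start, from the RefSeq table on GRCh38.p14, 5′ to 3′ on the gene's strand. Capitals mark a match, on either strand, to 1 of 4 motifs searched: TGATGNAA, the core of sites bound by ATF4 with C/EBP proteins, CACGTG, the E-box, CCGGAAG, an ETS core, and the 10-letter NRF1 motif.
PCK2 (chr14:24094061-24094310, plus strand): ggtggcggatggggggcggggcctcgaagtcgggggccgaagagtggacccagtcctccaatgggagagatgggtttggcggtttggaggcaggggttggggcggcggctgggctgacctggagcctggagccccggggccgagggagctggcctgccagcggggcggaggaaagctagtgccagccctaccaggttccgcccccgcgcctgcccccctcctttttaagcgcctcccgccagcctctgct
GLUD1 (chr10:87094844-87095093, minus strand): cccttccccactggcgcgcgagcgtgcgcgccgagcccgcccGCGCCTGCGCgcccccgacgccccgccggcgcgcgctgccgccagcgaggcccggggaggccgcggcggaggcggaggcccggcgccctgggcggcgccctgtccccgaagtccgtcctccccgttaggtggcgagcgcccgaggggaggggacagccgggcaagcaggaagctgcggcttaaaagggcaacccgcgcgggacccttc
GOT1 (chr10:99430625-99430874, minus strand): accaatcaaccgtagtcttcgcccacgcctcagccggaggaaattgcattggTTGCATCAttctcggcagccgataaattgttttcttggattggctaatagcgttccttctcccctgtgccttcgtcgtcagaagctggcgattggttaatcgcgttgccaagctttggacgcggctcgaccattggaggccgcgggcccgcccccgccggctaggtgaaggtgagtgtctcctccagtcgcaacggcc
GOT2 (chr16:58734317-58734566, minus strand): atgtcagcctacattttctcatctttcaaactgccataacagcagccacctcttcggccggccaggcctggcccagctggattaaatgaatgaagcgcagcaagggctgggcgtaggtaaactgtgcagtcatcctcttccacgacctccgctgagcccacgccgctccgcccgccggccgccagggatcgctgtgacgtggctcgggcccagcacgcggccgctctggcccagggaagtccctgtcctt

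GOT1 holds the ATF4 and C/EBP core, as TTGCATCA, 198 to 191 bases before its start, GLUD1 holds the NRF1 motif 208 to 199 bases before its start, and the windows of PCK2 and GOT2 hold none of the 4. All of these RefSeq starts lie downstream of the GENCODE 29 starts. The windows of PCK2 and GOT1 therefore fall within the gene as GENCODE draws it, and those of GLUD1 and GOT2 do so in part. The RefSeq table had 42 such windows for 32 of the 34 genes. OGDH and SDHC had no entry. The ATF4 core was in 1 of the 42 windows (2.38%) and in 3.14% of all 35116 windows of this length. The NRF1 motif was in 7 (16.7%, against 5.07% of all windows), in GLUD1, IDH3A, IDH3G, MPC2, SDHA, SDHD and SUCLA2. The ETS core was also in 7 (16.7%, against 8.52%), in DLST, IDH3B, IDH3G, MDH2, ME2, SDHB and SDHD, and the E-box in 3 (7.14%, against 6.34%). The NRF1 list holds a gene that fell, genes that rose and genes that were not called, and a match is a description of letters, not of binding.

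PCK2 had the lowest fold change of the 34 genes. It encodes the mitochondrial phosphoenolpyruvate carboxykinase, which turns oxaloacetate into phosphoenolpyruvate, and lies on chromosome 14 at 24094053 to 24110598 (GENCODE 29 on GRCh38, plus strand). Its level was 295 and 292 CPM in the control libraries, 53.6 and 57.5 in those with shRNA1, and 58.0 and 53.5 in those with shRNA2. The knockdown libraries were thus 5.26-fold lower and far outside the spread of either group (−2.40 ± 0.04, adjusted p = 1.52e-15). In rank its log2 change was the 213th lowest of 16039 genes. No exon of another annotated gene overlapped it.

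Of the malic enzymes, which turn malate into pyruvate, only the cytosolic one passed the test. ME1 had 84.4 and 94.9 CPM in the controls, 118 and 106 with shRNA1, and 109 and 103 with shRNA2 (0.28 ± 0.06, adjusted p = 0.000996). ME2, the mitochondrial NAD-dependent form, had 46.3 CPM in both controls and 41.7 to 50.4 in the knockdown libraries (−0.04 ± 0.07, adjusted p = 0.656). ME3 was near the detection limit, with 16 and 17 counts in the controls, 3 and 4 with shRNA1, and 11 and 14 with shRNA2 (−1.20 ± 0.64, adjusted p = 0.120).

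The 3 glutamate genes all changed, and not in 1 direction. GLUD1, glutamate dehydrogenase, lies on chromosome 10 at 87050486 to 87094866 (minus strand). It had 246 and 248 CPM in the controls, 146 and 153 with shRNA1, and 145 and 143 with shRNA2, a 1.68-fold lower level (−0.75 ± 0.03, adjusted p = 5.94e-11). GOT1, the cytosolic aspartate aminotransferase, on chromosome 10 at 99396870 to 99431569 (minus strand), had 78.9 and 83.5 CPM in the controls, 59.7 and 62.9 with shRNA1, and 54.1 and 59.1 with shRNA2 (−0.47 ± 0.06, adjusted p = 4.94e-06). GOT2, the mitochondrial aminotransferase that works opposite GOT1 in the malate-aspartate shuttle, lies on chromosome 16 at 58707131 to 58734357 (minus strand). It had 108 CPM in each control library, 246 and 233 with shRNA1, and 241 and 240.4 with shRNA2, 2.21-fold higher and the highest fold change of the members (1.15 ± 0.04, adjusted p = 1.08e-12). In each of these genes the control and knockdown libraries did not overlap. Over all members 20 had every knockdown library above both controls (background 32.7%) and 5 had every one below (34.2%).

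**Figure D3:**
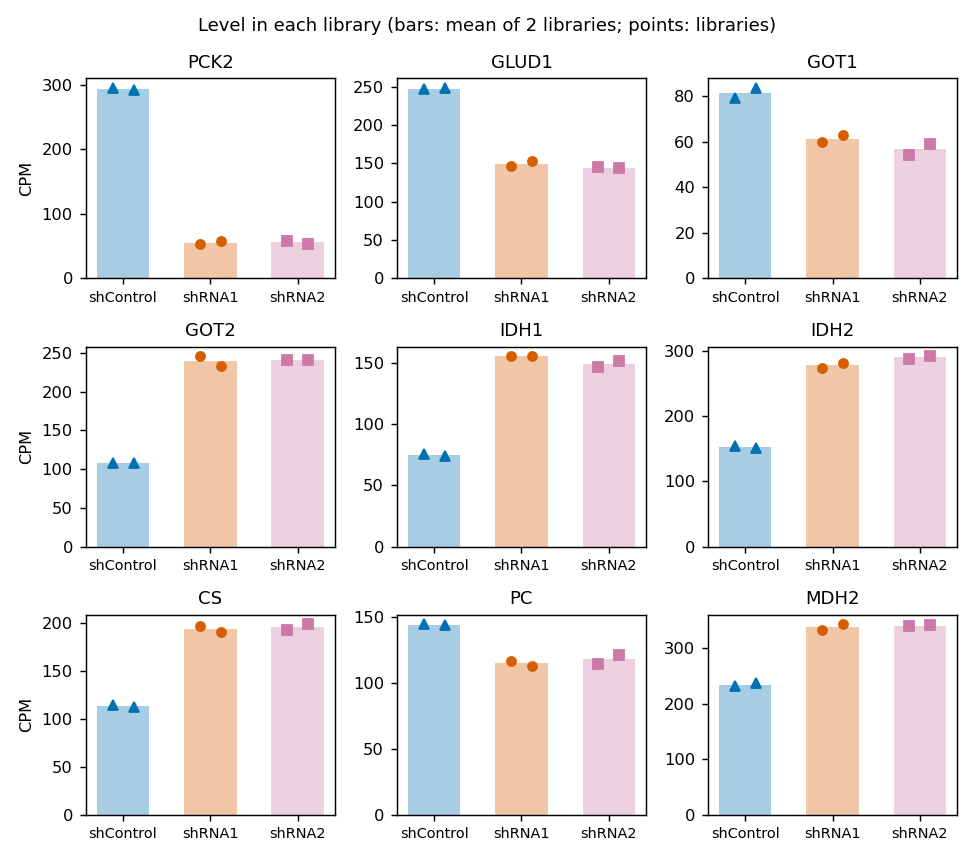
CPM in each library (points) and the mean of the 2 libraries of each group (bars from 0) for 9 genes. PCK2, GLUD1, GOT1 and PC are lower in all 4 knockdown libraries, and GOT2, IDH1, IDH2, CS and MDH2 are higher in all 4, with little distance between both hairpins.

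The sum over all 34 genes was 3115 ± 20.9 CPM (SD, n = 2) in shControl, 3701 ± 19.9 with shRNA1 and 3691 ± 10.1 with shRNA2. The genes from citrate synthesis to 2-oxoglutarate summed to 642 ± 11.1 CPM in shControl, 1036 ± 3.55 with shRNA1 and 1062 ± 10.2 with shRNA2. Those from succinate to oxaloacetate summed to 768 ± 13.7, 1029.6 ± 22.9 and 1022 ± 4.75 CPM. The malic enzymes and PCK2 went the other way, from 430.3 ± 4.73 CPM to 215 ± 1.76 and 205 ± 5.22. The 3 glutamate genes summed to 433 to 440.1 CPM in the control libraries and 439.8 to 451 in the knockdown libraries, so the conditions overlapped in this sum although each gene differed. By compartment, 4 of 5 cytosolic genes were higher and 1 lower (median log2 change 0.34). Of 29 mitochondrial genes, FH among them, 15 were higher, 3 lower and 11 not called (median 0.23). Over all tested genes 28.6% were higher and 28.9% lower, and the difference between compartments was not tested.

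On a scale of CPM per kilobase of exon, which allows genes to be set beside each other, the order of levels changed at the top. In shControl GLUD1 (70.3) and PCK2 (70.1) stood first and second, a gap smaller than their spread over libraries, followed by MDH2 (64.4) and IDH2 (54.3). With shRNA1 the order was IDH2 (98.7), MDH2 (92.9) and GOT2 (63.5), and with shRNA2 it was IDH2 (103), MDH2 (93.6) and GOT2 (63.9). PCK2 was the 24th of 34 with each hairpin, at 13.3 CPM per kilobase. Exon lengths here are the union of all annotated transcripts, from 1546 bases for MPC1 to 16243 for ME2, so genes with long rare exons are set too low.

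Ratios of 2 genes within a library do not depend on scaling between libraries. Of 10 pairs, the widest shifts were in the pairs with PCK2 and with GOT2. The log2 ratio of PCK2 to PC counts was 1.04 and 1.02 in the control libraries and −1.18 to −0.97 in the knockdown libraries, so PCK2 passed from above PC to below it in counts. GLUD1 to GOT2 went from 1.18 and 1.19 to between −0.75 and −0.61. GOT1 to GOT2, cytosolic to mitochondrial, went from −0.46 and −0.38 to between −2.16 and −1.89, a 3.05-fold lower ratio. These 3 ratios were each shifted by more than 1.5 log2 units, and no knockdown library overlapped the controls.

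The other ratios moved less. PC to PDHA1, carboxylation against oxidation of pyruvate, went from 0.89 and 0.90 to between 0.08 and 0.24, and IDH2 to IDH3A from 2.19 and 2.35 to between 3.08 and 3.21. MPC1 to MPC2 shifted by −0.62 and ME1 to ME2 by 0.32. IDH1 to IDH2 shifted by 0.13 and MDH1 to MDH2 by 0.17, small beside the rise of each gene. SUCLG2 to SUCLA2 overlapped between conditions (shift −0.20, p = 0.400 in an exact permutation test). For each of the other 9 pairs the exact permutation test, two-sided over 4 knockdown and 2 control libraries, gave p = 0.133 (0.148 adjusted over the 10 pairs), the smallest value this design allows, so no ratio could pass 0.05. In 4 further pairs chosen after their values were seen, IDH3B to IDH3A shifted by 0.77, SUCLG1 to SUCLG2 by 0.82, SDHC to SDHD by 0.73 and PDHA1 to PDHX by 0.57, each without overlap.

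**Figure D4:**
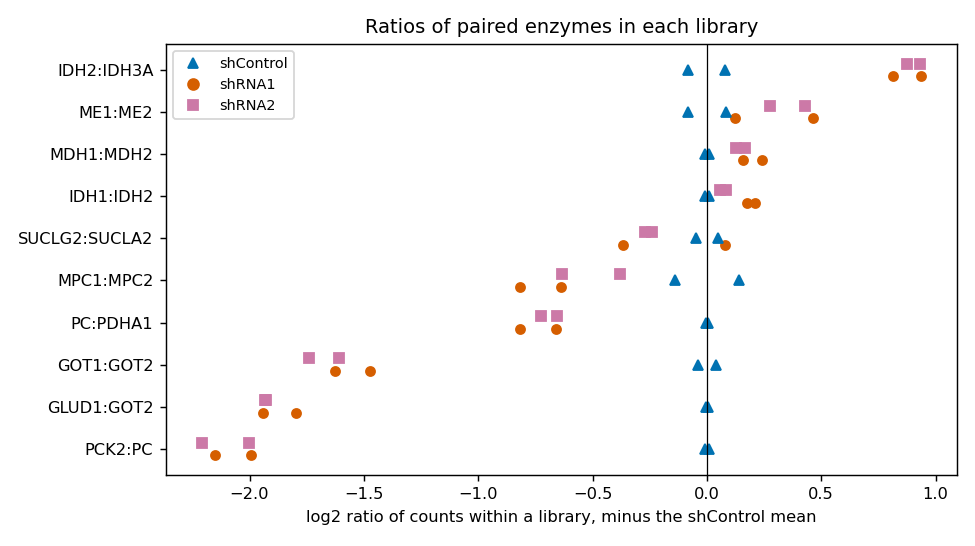
Log2 ratio of counts of 2 genes in each library, minus the mean of the 2 shControl libraries, for 10 pairs. The ratios of PCK2 to PC, GLUD1 to GOT2 and GOT1 to GOT2 lie far to the left in all 4 knockdown libraries, and those of MDH1 to MDH2 and IDH1 to IDH2 stay near 0.

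Genes around the cycle, of which 43 are reported here, were called at shares near the background. Of 39 tested, 11 were higher, 12 lower and 16 not called (28.6% higher and 28.9% lower over all tested genes), with a median of −0.13. Of 4 genes for the use of citrate and acetyl-CoA 3 were higher and 1 not called. These were ACLY, ACACA, ACSS2 and ACSS1, and the last pair was chosen after its values were seen. ACSS2 (0.25 ± 0.09, adjusted p = 0.0294) overlapped the controls, and its call was lost without shRNA1 replicate 2 (0.19, adjusted p = 0.0804), shRNA2 replicate 2 (0.23, adjusted p = 0.0914), shControl replicate 1 (0.22, adjusted p = 0.158) or shControl replicate 2 (0.27, adjusted p = 0.0943) and under total counts (0.10, adjusted p = 0.380). ACSS1, at 0.470 to 2.03 CPM, was not called (−0.33 ± 0.46, adjusted p = 0.566). ACLY, which splits citrate in the cytosol, had a mean of 425 CPM in shControl, 560.3 in shRNA1 and 583 in shRNA2 (0.43 ± 0.03, adjusted p = 1.13e-08). ACACA, which commits acetyl-CoA to fatty acids, had 53.7, 101 and 102 CPM in the same order (0.92 ± 0.05, adjusted p = 7.49e-10). Of 7 mitochondrial carriers 5 were higher and 2 not called. SLC25A10, the dicarboxylate carrier, had mean levels of 42.7, 120.5 and 121 CPM, a 2.82-fold difference (adjusted p = 4.83e-11). SLC25A13, an aspartate-glutamate carrier of the malate-aspartate shuttle, had 37.3, 94.6 and 93.9 CPM (1.34 ± 0.06, adjusted p = 1.54e-11). The others were SLC25A1, SLC25A11 and SLC25A12, which were named after their values were seen.

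SLC1A5, a glutamine importer of the plasma membrane, fell from a mean of 562 CPM in shControl to 193 in shRNA1 and 191 in shRNA2 (−1.55 ± 0.03, adjusted p = 8.69e-15). GPT2, the mitochondrial alanine aminotransferase, had 165 and 171 CPM in the controls and 67.7 to 75.4 in the knockdown libraries (−1.24 ± 0.05, adjusted p = 1.12e-11). Of the 7 genes that switch pyruvate dehydrogenase off or on, 4 were lower and 3 not called, against 28.9% lower over all tested genes. PDP1, the phosphatase that activates the complex, had 157 CPM in shControl, 75.5 in shRNA1 and 69.5 in shRNA2 (−1.12 ± 0.04, adjusted p = 6.29e-12). PDP2, named after its values were seen, fell by 0.40 on the log2 scale (adjusted p = 0.000513). The inhibiting kinase PDK1 was lower (−0.34 ± 0.10, adjusted p = 0.00811), a call lost without shControl replicate 1 (−0.23, adjusted p = 0.1499) and after removal of the length and GC trend (−0.18, adjusted p = 0.141). PDK2 was lower too (−0.38 ± 0.13, adjusted p = 0.0183), and its call was lost without shRNA1 replicate 1 (−0.29, adjusted p = 0.0688), shControl replicate 1 (−0.36, adjusted p = 0.108) or shControl replicate 2 (−0.42, adjusted p = 0.0697). PDK3 (0.09 ± 0.11) and PDK4, under 1 CPM in every library, were not called.

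**Figure D5:**
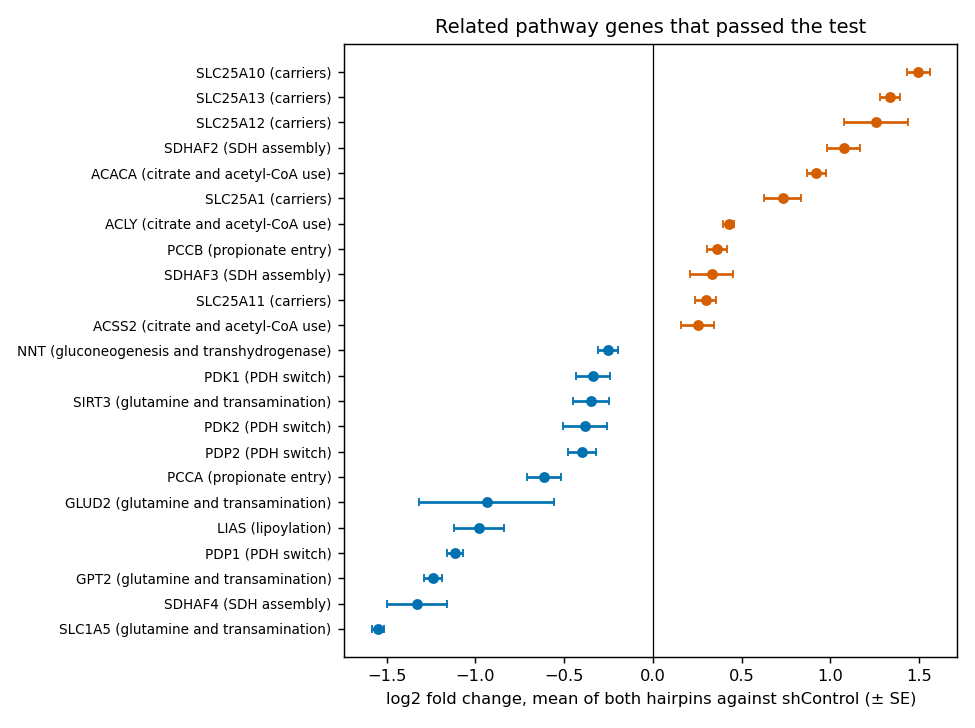
Log2 fold change with SE of the 23 related genes that passed the test in the mean of both hairpins against shControl, ordered by size (11 higher in orange, 12 lower in blue). SLC25A10 lies farthest to the right (2.82-fold higher) and SLC1A5 farthest to the left, at −1.55.

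The 34 genes lie on 17 chromosomes. Exons of 18 overlap those of another annotated gene, and 7 share at least 10% of their exon bases with a gene on the opposite strand, among them MPC2 with DCAF6 (22.5%), GLUD1 with SHLD2 (13.2%) and IDH3G with SSR4 (10.2%). Whether counting used the strand is not given in the sources used here, so reads of such overlaps cannot be told apart. Pseudogenes named after a member held few counts, the most for SDHA (2.79% of its counts), SDHD (1.62%) and GLUD1 (0.672%). GLUD2, an intronless copy of GLUD1, had 18 to 44 counts a library, and its level is uncertain (−0.94 ± 0.38, adjusted p = 0.0467 with edgeR and 0.0944 with DESeq2).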

How the data were processed

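Total RNA of 786-O cells was sequenced paired-end after TRIzol extraction and an Abclonal library kit, per the labels. The authors deposited whole-number counts per gene. Per the submitters' processing notes they used FastQC 0.11.9, Trim Galore 0.6.7, HISAT2 2.2.1 and StringTie 2.2.1 on hg38. The counting tool, annotation and strand setting, and how multi-mapping reads were handled, are not given in these sources.

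Genes were filtered with filterByExpr, scaled by TMM and fitted as 3 group means with edgeR 4.0.16 in R 4.3.3 (quasi-likelihood, robust, all 6 libraries), with Benjamini-Hochberg adjustment over 16039 genes. Errors are standard errors unless marked SD. Alternatives were DESeq2 1.42.0, RLE factors, total counts, no filter, a stricter filter (at least 10 counts in 2 or more libraries with mean CPM of 1 or more), only the groups compared, a replicate block, removal of a length and GC trend (mgcv 1.9.3; 99.1% of tested genes), and each library left out, where the lone library of a group takes the spread of the other groups. Ratios added 0.5 counts to each gene. Same-numbered libraries did not deviate together (correlations −0.03 to 0.01), so no pairing was used. No 2 libraries of a group were alike within counting noise. Positions come from GENCODE 29 on GRCh38.

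On simulated data (15527 genes, mean of both hairpins) 61.9% of 97 changes of 1.5-fold and 68.1% of 94 changes of 2-fold were called. Of 141 calls 17 were false, a share above the 0.05 that the threshold aims at. Far fewer genes changed there than in the real data, where 57.5% of tested genes were called. The shares found in the simulation may therefore not hold for the members. All members are named, and of the related genes the 10 with the smallest p, those set by name, and others marked as chosen later. Of the related genes, 3 are not reported here and stay out of the list's counts. Members and lists were chosen with earlier results of these data known.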

Additional observations from a re-analysis of the deposited data

How the results depend on the processing

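For the mean of both hairpins the count of higher members was 19, with 28.6% of all tested genes higher. It ran over all settings from 16 under total counts (21.2%) to 22 with the length and GC trend removed (32.8%). With 1 library left out the median log2 change ran from 0.27 to 0.34 for the members and from −0.05 to −0.02 for all tested genes. Under total counts the members called lower were 9 in place of 4 for the mean of both hairpins, 7 for shRNA1 and 8 for shRNA2, where 37.6%, 33.5% and 34.5% of all tested genes were lower. Leaving out 1 library gave 4 to 5 lower members for the mean and for shRNA1, and 4 for shRNA2. Related genes called lower with shRNA2 went from 7 to 11 over the same fits, with 7 without shRNA2 replicate 2 or shControl replicate 1. With the replicate block 19 members were higher and 4 lower, and no member's call changed in that contrast. LINC02068 (adjusted p = 0.0506) and GLUD2 (0.0584) lost theirs with the block. DESeq2 changed no member's call in that contrast and left SDHAF3, GLUD2 and LINC02068 uncalled.

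Among the members, the called related genes, PDK3, PDK4 and LINC02068, signs turned only where the change was not called by the main test. The markers and the other related genes were not compared across settings. Under total counts the values were −0.15 for IDH3A, −0.083 for SDHA, −0.12 for SDHD, −0.015 for DLAT and −0.061 for PDK3. With the length and GC trend removed they were 0.13 for SUCLG2, 0.075 for MPC1 and 0.11 for ME2. IDH3A was −0.017 with no filter and −0.019 with the stricter one, MPC1 0.00087 with the replicate block, and SUCLG2 0.0014 with RLE factors. With single libraries left out, IDH3A ran from −0.097 to 0.086, SUCLG2 from −0.027 to 0.057, SDHD from −0.064 to 0.13, MPC1 from −0.16 to 0.16, ME2 from −0.070 to 0.023 and PDK3 from −0.0083 to 0.19. The cause was not tested. Low counts limit ME3, PDK4 and LINC02068.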

Other observations

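Helpers of the cycle's enzymes that the lists held apart did not move as 1 group. Of 3 lipoylation genes 1 was lower, and LIPT1 and LIPT2 were not called. Of 4 assembly factors of succinate dehydrogenase 2 were higher, 1 lower and 1, SDHAF1, not called. Over all tested genes 28.6% were higher and 28.9% lower. SDHAF3 was higher (0.33 ± 0.12, edgeR adjusted p = 0.0304). Its call was lost in DESeq2, with no filter (0.31, edgeR adjusted p = 0.0575) and under total counts (0.18, adjusted p = 0.225). The call was also lost without shRNA1 replicate 2 (log2 0.31), shRNA2 replicate 1 (0.33), shRNA2 replicate 2 (0.32) or shControl replicate 1 (0.20). SDHAF1, SDHAF3, LIPT1 and LIPT2 were named after their values were seen. LIAS, which makes the lipoyl arm of the 2-oxoacid dehydrogenases, fell from 14.8 and 12.1 CPM in the controls to between 6.27 and 7.79 in the knockdown libraries (−0.98 ± 0.14, edgeR adjusted p = 2.35e-05). Among assembly factors of succinate dehydrogenase, SDHAF2, which helps attach the flavin to SDHA, had a mean of 13.3 CPM in shControl, 27.8 in shRNA1 and 28.1 in shRNA2 (1.07 ± 0.09, adjusted p = 8.98e-08). SDHAF4, which acts on flavinated SDHA, had 13.5, 5.07 and 5.71 CPM in the same order (−1.33 ± 0.17, adjusted p = 6.06e-06). The subunits of propionyl-CoA carboxylase, by which propionate carbon joins the cycle, were also split. PCCA fell from 25.5 and 23.7 CPM to between 14.8 and 16.7, and PCCB rose from 70.5 and 64.7 CPM to between 84.0 and 89.4 (−0.61 ± 0.10 and 0.36 ± 0.06, adjusted p = 5.23e-05 and 4.98e-05; chosen after their values were seen).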
